A study of Mus musculus with 8 samples.

Results

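Eosinophils are granulocytes of the bone marrow that store cationic proteins in large secretory granules, and the report follows 8 genes that mark them, out of 18790 named genes measured. The genes were chosen by name: the granule proteins Prg2, Prg3, Epx, Ear1, Ear2 and Ear6 and the surface receptors Il5ra and Ccr3. Counts were given for all 8. RNA came from femoral marrow of untreated C57BL/6 mice carrying the Csf1r-EGFP reporter, in which green fluorescent protein (GFP) is made under control of the Csf1r gene of the macrophage lineage. The CD11b+ sort took cells positive for CD11b, F4/80 and VCAM1, negative for Ly6G and low for GFP. The CD11b- sort took cells negative for CD11b and positive for F4/80, VCAM1 and GFP. Each sort had 4 biological replicates sequenced by SmartSeq2, a full-length cDNA method for small amounts of RNA, and the study asked whether such cells are macrophages or other cells that carry pieces of macrophages. Both sorts share the strain, the reporter and the F4/80 and VCAM1 gates, so no population lacking these surface proteins is available for comparison. The proteins of the receptor genes Il5ra and Ccr3 were not used in either gate.

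Eosinophil granules hold a crystalline core of major basic protein, encoded by Prg2, surrounded by a matrix with eosinophil peroxidase and ribonucleases. Mouse progenitors transcribe these genes early, during maturation in the marrow, under the control of GATA1, C/EBP factors and PU.1, and mature eosinophils carry the finished proteins. Interleukin-5, which binds the alpha chain encoded by Il5ra together with the shared beta chain encoded by Csf2rb, expands and sustains the lineage, while Ccr3 is the receptor for the eotaxins that draw eosinophils into tissue.

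The Ear genes, for eosinophil-associated ribonuclease, are near-copies of one another, which bears on how their reads can be assigned. The 250 bases upstream of the start that the promoter table uses are shown for the 3 Ear members, Prg3 and Epx, the granule genes with an entry there, all of which were higher in CD11b+ cells; all are from RefSeq on GRCm38.p6, written 5′ to 3′ on the strand of the gene, with matches to TTGCNNAA (a pattern that C/EBP factors bind) or GATAA on either strand in capitals.
Ear1: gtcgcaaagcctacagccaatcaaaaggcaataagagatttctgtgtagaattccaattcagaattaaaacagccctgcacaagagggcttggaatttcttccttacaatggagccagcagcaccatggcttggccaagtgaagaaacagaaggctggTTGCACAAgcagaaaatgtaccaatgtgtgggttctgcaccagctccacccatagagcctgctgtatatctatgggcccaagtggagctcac
Ear2: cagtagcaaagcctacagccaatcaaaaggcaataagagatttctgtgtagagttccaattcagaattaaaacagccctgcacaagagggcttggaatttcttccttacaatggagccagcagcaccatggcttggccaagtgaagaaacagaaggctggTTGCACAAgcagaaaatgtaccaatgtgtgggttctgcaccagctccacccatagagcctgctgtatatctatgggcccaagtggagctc
Ear6: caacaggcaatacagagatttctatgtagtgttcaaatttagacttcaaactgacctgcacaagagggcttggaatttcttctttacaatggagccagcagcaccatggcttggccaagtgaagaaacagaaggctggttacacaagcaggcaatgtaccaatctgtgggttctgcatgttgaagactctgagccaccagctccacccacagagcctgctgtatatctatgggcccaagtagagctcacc
Prg3: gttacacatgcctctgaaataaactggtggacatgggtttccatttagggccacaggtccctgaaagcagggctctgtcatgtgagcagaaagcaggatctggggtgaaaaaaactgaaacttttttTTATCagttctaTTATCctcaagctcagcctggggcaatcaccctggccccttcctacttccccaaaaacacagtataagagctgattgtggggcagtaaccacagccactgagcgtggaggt
Epx: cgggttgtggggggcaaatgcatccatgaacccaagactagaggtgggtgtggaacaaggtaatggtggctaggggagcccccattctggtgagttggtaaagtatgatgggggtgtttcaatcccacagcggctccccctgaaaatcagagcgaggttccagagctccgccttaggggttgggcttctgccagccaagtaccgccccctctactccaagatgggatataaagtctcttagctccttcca
These lie at chr14:43819640-43819889 on the minus strand for Ear1, chr14:44102404-44102653 on the plus strand for Ear2, chr14:51853518-51853767 on the plus strand for Ear6, chr2:84987965-84988214 on the plus strand for Prg3 and chr11:87875537-87875786 on the minus strand for Epx. For Prg3 that start lies 19 bases inside the RefSeq gene span, and for Ccr3, whose window is not shown, it lies 4146 bases inside, downstream of the outermost start.

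Promoter sequences were matched for 7 of the 8 genes. The Ear1 and Ear2 stretches differed at 2 of 248 aligned bases, an identity of 99.2%, and Ear1 and Ear6 were 92.6% identical over 229 aligned bases. The letters TTGCACAA stood at -92 in Ear1 and at -90 in Ear2 relative to the start used for each window, and the pattern was not found in the Ear6 window. Prg3 had TTATC, which is GATAA read on the other strand, at -123 and -111. The Epx window held neither pattern. Il5ra, which binds interleukin-5, had GATAA at -73 and Ccr3 had it at -29. Of 32851 promoter entries of the same length, 9.56% held TTGCNNAA and 22.6% held GATAA on either strand, so neither pattern is rare. No overlap between these patterns arose in the printed windows. In the transcripts of the GENCODE M21 annotation, Ear1 and Ear2 were 96.8% identical and Ear1 and Ear6 were 85.2% identical. Of the 50-base stretches of Ear1, 57.4% also occurred in another gene, compared with 41.5% for Ear2 and 0.954% for Ear6. For 100-base stretches the shares were 23.9% for Ear1, 13.9% for Ear2 and 0% for Ear6. At 50 bases Ear1 and Ear2 shared stretches with each other and with the relatives Ear10, Ear-ps2 and Ear-ps9. At 100 bases they shared none with each other, but Ear1 shared some with Ear10 and Ear-ps9, and Ear2 with Ear10 and Ear-ps2. Short reads of Ear1 and Ear2 can therefore be shared, so their separate values are uncertain. Prg2 and Prg3, both members of the major basic protein family, are neighbours on mouse chromosome 2 with 4563 bases between them, and their transcripts were 63.3% identical. Prg2, Prg3, Epx and Ccr3 shared no 50-base stretch with any other gene.

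Library totals over named genes were 36517568 to 47844998 counts in CD11b+ libraries and 27337092 to 34996595 counts in CD11b- libraries. Levels are given in CPM (counts scaled to the library total), and the limit set by a count of 0 was 0.0627 to 0.0822 CPM in CD11b+ libraries and 0.0857 to 0.110 CPM in CD11b- libraries; both limits, like the intervals given with counts, reflect counting error alone, as no molecular identifiers mark the reads. Listed macrophage genes were unevenly expressed in both sorts. The 17 markers summed to 1727 to 1976 CPM in CD11b+ libraries and to 1415 to 1887 CPM in CD11b- libraries. Apoe alone averaged 708 CPM in CD11b+ cells and 743 CPM in CD11b- cells. Vcam1, whose protein was a gate of both sorts, averaged 394 and 107 CPM in the same order. Siglec1 averaged only 1.78 and 0.860 CPM, and Timd4 2.70 and 2.45 CPM. Of the 17, Adgre1, Vcam1 and Slc40a1 were called higher, C1qc, Hmox1 and Fcna were called lower and 11 were not called, which is near the shares of all tested genes given in the next paragraph. The C1qc call was lost in 3 of 8 fits that left out a library.

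All 6 granule genes rose in CD11b+ cells, and neither receptor gene passed the test. On simulated counts the test left many of the smaller folds uncalled, so not passing says little about equal receptor levels. At an adjusted p of 0.05 (edgeR, quasi-likelihood, Benjamini-Hochberg), 14.6% of the 11965 genes tested were higher in CD11b+ cells and 15.0% were lower, while of the 8 members 6 were higher and 0 were lower. At an unadjusted p under 0.05 edgeR had 7 members higher and 1 (Ccr3) lower. The share of all tested genes at that threshold is not given here, so these counts have no background to be set against. At the adjusted threshold DESeq2 and limma on log2(CPM + 1) also called 0 lower. The median log2 fold change of the 8, CD11b+ over CD11b-, was 6.12, compared with -0.01 over all genes tested. The 4 CD11b+ libraries lay above the 4 CD11b- libraries for 7 of the 8 members, where 18.1% of all genes tested did so. In bulk RNA, fewer cells of a type and less RNA per cell cannot be told apart.

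**Figure D1:**
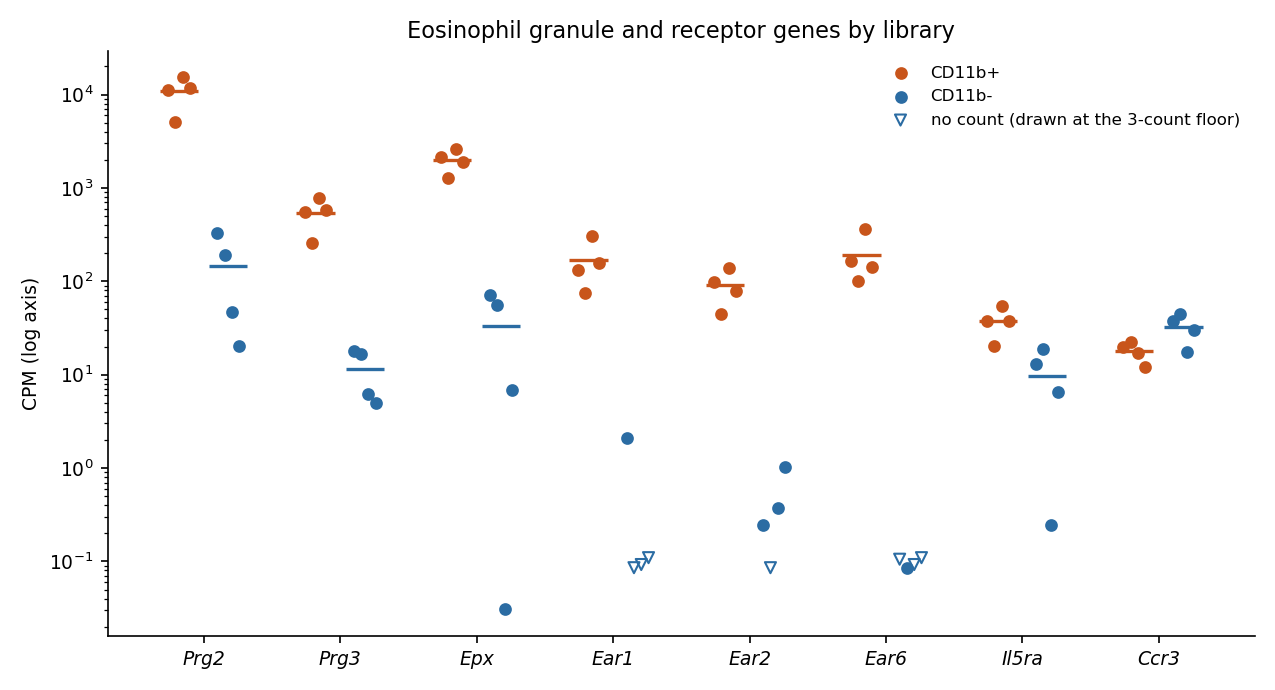
CPM of the 8 genes in each library on a log axis, with CD11b+ libraries left of CD11b- libraries. Points are libraries, horizontal lines are group means (drawn only where every library has a count), and open triangles are libraries with no count, drawn at the floor of 3 counts; 7 genes have all CD11b+ libraries above all CD11b- libraries, and Ccr3 overlaps.

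Prg2, the core protein of the granule, had 11237, 5019.5, 15273 and 11659 CPM in CD11b+ replicates 1 to 4, against 331, 190.5, 46.6 and 20.4 CPM in CD11b- replicates 1 to 4. The lowest CD11b+ library was far above the highest CD11b- library. Means were 10797 ± 4256 CPM in CD11b+ cells and 147 ± 144 CPM in CD11b- cells (SD, n = 4 each). The fitted difference was 77.0-fold (log2 fold change 6.27 ± 0.90 SE, 95% interval 4.25 to 8.28, edgeR adjusted p = 0.000518). Without CD11b- replicate 1 it was 129-fold, and without CD11b- replicate 4 it was 60.2-fold.

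Prg3, a second protein of the major basic protein family, had 555, 259, 786 and 575 CPM in CD11b+ replicates 1 to 4, against 17.8, 16.7, 6.21 and 4.97 CPM in CD11b- replicates 1 to 4. The groups did not overlap, and CD11b- replicates 1 and 2 were the higher pair of their group, as for Prg2. Prg3 was 49.4-fold higher in CD11b+ cells (log2 fold change 5.63 ± 0.54 SE, 95% interval 4.42 to 6.83, edgeR adjusted p = 4.10e-05).

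Epx, the peroxidase that makes oxidants from halides, had 2145, 1263, 2628 and 1917 CPM in CD11b+ replicates 1 to 4, against 70.6, 55.5, 0.0309 and 6.84 CPM in CD11b- replicates 1 to 4. The third CD11b- value is a single count, in a library with 1510 counts of Prg2. Epx was 63.2-fold higher in CD11b+ cells (log2 fold change 5.98 ± 1.35 SE, 95% interval 2.96 to 9.01, edgeR adjusted p = 0.00766). Without CD11b- replicate 1 it was 99.2-fold higher, and without CD11b- replicate 3, which holds the single count, it was 47.5-fold higher. Limma on log2(CPM + 1) gave 143-fold.

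Ear1, a ribonuclease of the granule matrix, had 132, 74.7, 305 and 156 CPM in CD11b+ replicates 1 to 4, against 2.08, 0, 0 and 0 CPM in CD11b- replicates 1 to 4. All 59 CD11b- counts came from replicate 1, and the other 3 libraries were below the floor. The pooled counts differed 364-fold (95% counting interval 282 to 479), and without CD11b- replicate 1 the difference was at least 5512-fold against a floor of 3 counts over the group (edgeR adjusted p = 0.00123 with all libraries). Without CD11b- replicate 2 the pooled ratio was 261, outside that counting interval, which leaves out the spread between libraries. The edgeR log2 fold change, which takes in that spread, was 8.44 (95% interval 5.32 to 11.6).

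Among the genes aligned with Ear1 (Ear2, Ear6 and Ear10), Ear2 was nearest in transcript sequence. Ear2 had 99.0, 44.2, 139 and 78.5 CPM in CD11b+ replicates 1 to 4, against 0.246, 0, 0.371 and 1.02 CPM in CD11b- replicates 1 to 4. Here CD11b- replicate 4 was the highest of its group, and replicate 2 held no count. The pooled ratio was 242 (95% counting interval 182 to 330), 466 without CD11b- replicate 4 and 173 without CD11b- replicate 2. The counting interval leaves out the spread between libraries, and the ratios of 466 and 173 lie outside it. The edgeR log2 fold change, which takes in that spread, was 7.85 (95% interval 5.76 to 9.93). The edgeR adjusted p was 0.000158 with all libraries.

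Ear6, a more distant ribonuclease of the same family, had 163, 101, 362 and 141 CPM in CD11b+ replicates 1 to 4, against 0, 0.0857, 0 and 0 CPM in CD11b- replicates 1 to 4. The CD11b- group held 3 counts in all, in replicate 2. The pooled ratio was 8236, with a 95% counting interval of 2818 to 39940, and without that library the difference was at least 5895-fold (edgeR adjusted p = 3.88e-06 with all libraries). Without CD11b- replicate 1 the Ear6 ratio was 6336, beside the lower bound of 5512 for Ear1, so the order of Ear1 and Ear6 rests on that library. Ear10, a further copy that is not among the 8, had 9 counts over the CD11b+ libraries and 0 counts over the CD11b- libraries and was not tested.

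Il5ra, the interleukin-5 receptor alpha chain, had 37.6, 20.0, 54.8 and 37.3 CPM in CD11b+ replicates 1 to 4, against 13.1, 18.7, 0.247 and 6.47 CPM in CD11b- replicates 1 to 4. The groups did not overlap, but the lowest CD11b+ library was close to the highest CD11b- library. The fitted difference was 4.08-fold and did not pass (log2 fold change 2.03 ± 0.89 SE, 95% interval 0.04 to 4.02, edgeR adjusted p = 0.123). Il5ra passed in 3 of 16 alternatives, with adjusted p from 0.0270 to 0.243 over all 16; these were DESeq2 (0.0401), limma on log2(CPM + 1) (0.0270) and edgeR without CD11b- replicate 3 (0.0336).

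Ccr3, the eotaxin receptor, had 20.0, 22.3, 17.0 and 12.1 CPM in CD11b+ replicates 1 to 4, against 37.6, 44.7, 17.4 and 30.0 CPM in CD11b- replicates 1 to 4. It was the only member with a lower mean in CD11b+ cells, at 17.8 ± 4.39 CPM against 32.4 ± 11.7 CPM in CD11b- cells (SD, n = 4 each), and the groups overlapped at CD11b- replicate 3. The difference did not pass (log2 fold change -0.80 ± 0.35 SE, 95% interval -1.59 to -0.01, edgeR adjusted p = 0.126), and adjusted p ran from 0.0553 to 0.296 over 16 alternatives.

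Per kilobase of exon (CPM divided by exon length in GENCODE M21, as the files carry no lengths), the order of levels in CD11b+ cells was Prg2, Epx, Prg3, Ear1, Ear6, Ear2, Il5ra and Ccr3. Prg2 stood at 12884 ± 5079 CPM per kb, Epx at 726 ± 207 and Prg3 at 573 ± 228 (SD, n = 4). Ear1 stood at 229 ± 135, Ear6 at 203 ± 123 and Ear2 at 125 ± 55.0 CPM per kb. Il5ra stood at 10.5 ± 3.97 and Ccr3 at 5.45 ± 1.34 CPM per kb. Epx and Prg3 differed by less than the SD of either, as did Ear1 and Ear6. Ear2 lay below both by less than their SDs but by more than its own. In CD11b- cells the levels per kilobase were 176 ± 171 for Prg2, 12.2 ± 12.8 for Epx, 12.0 ± 7.13 for Prg3, 9.90 ± 3.58 for Ccr3 and 2.70 ± 2.24 for Il5ra, and all 3 Ear genes were under 1. Epx, Prg3 and Ccr3 differed by less than their SDs there.

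The level of Prg3 kept a near-constant proportion to Prg2 among CD11b+ libraries. Prg3 counts were 4.94%, 5.17%, 5.14% and 4.93% of Prg2 counts in CD11b+ replicates 1 to 4, against 5.37%, 8.79%, 13.3% and 24.4% in CD11b- replicates 1 to 4. The share thus spanned 1.05-fold among CD11b+ libraries, in which Prg2 itself spanned 3.04-fold, and 4.54-fold among CD11b- libraries. Epx counts were 19.1%, 25.2%, 17.2% and 16.4% of Prg2 counts in CD11b+ replicates 1 to 4, against 21.3%, 29.2%, 0.0662% and 33.5% in CD11b- replicates 1 to 4. With 1 count of Epx, CD11b- replicate 3 had an exact 95% interval of 0.0017% to 0.370%, below each other library. Il5ra counts were 0.320% to 0.399% of Prg2 counts in CD11b+ libraries, against 3.96%, 9.84%, 0.530% and 31.7% in CD11b- replicates 1 to 4. These shares are of read counts, not per length, and no test was run on them.

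**Figure D2:**
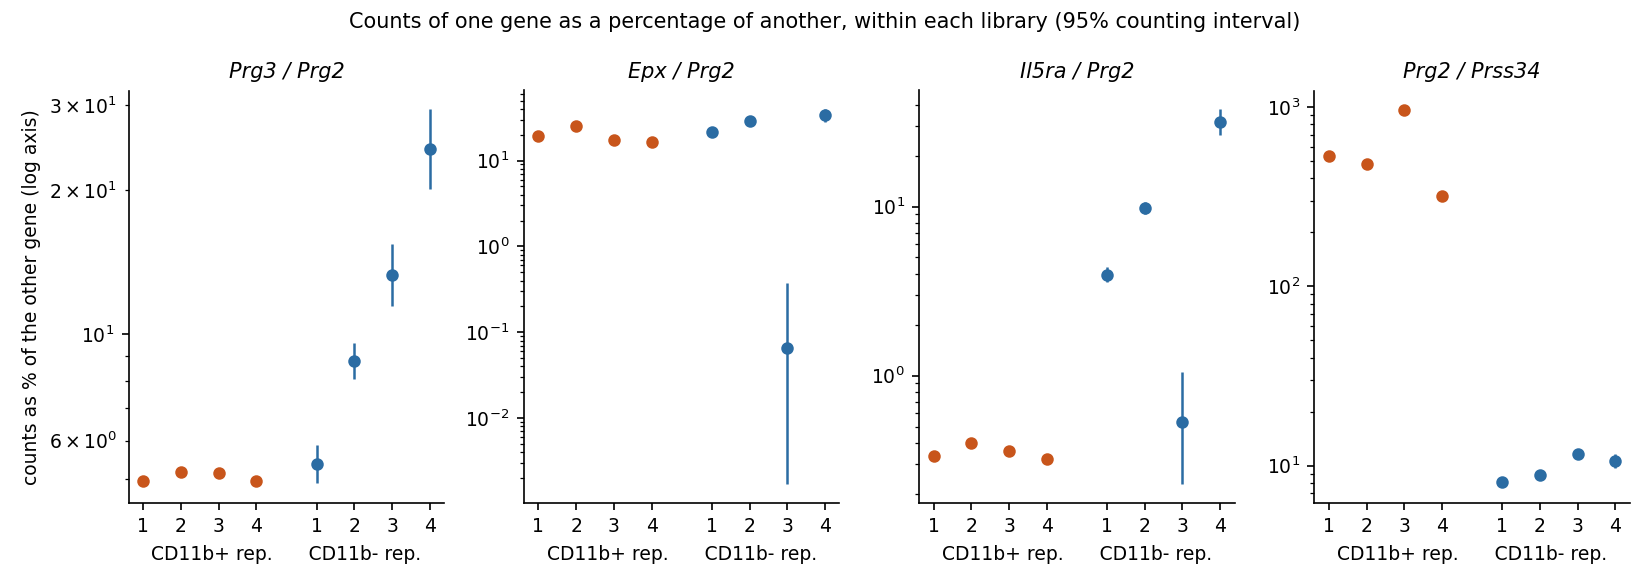
Counts of one gene as a percentage of another within each library, on a log axis with exact 95% counting intervals, CD11b+ libraries left of CD11b- libraries. Prg3 over Prg2 lies between 4.93% and 5.17% in CD11b+ libraries, while Epx over Prg2 falls to 0.0662% in CD11b- replicate 3.

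Among CD11b+ libraries, replicate 3 was highest for 7 of the 8 members and replicate 2 was lowest for 7, with Ccr3 the exception in both. The highest CD11b+ library exceeded the lowest by 4.09-fold for Ear1, 3.59-fold for Ear6, 3.14-fold for Ear2, 3.03-fold for Prg3, 2.73-fold for Il5ra, 2.08-fold for Epx and 1.84-fold for Ccr3. Spans were 1.28-fold to 2.78-fold, with a median of 1.53, over 13 neutrophil genes with counts in every CD11b+ library, and 1.12-fold to 1.81-fold, with a median of 1.41, over 8 primary granule genes. Of the neutrophil genes 3 (Mmp9, Retnlg and Cxcr2) spanned more than Epx, and the basophil protease Prss34 spanned 3.54-fold, so spans this wide also occurred outside the members. Alox15, a lipoxygenase that eosinophils share with resident macrophages, spanned 3.40-fold, highest in replicate 3 and lowest in replicate 2.

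The other genes of the pathway were called in both directions. Of 14 tested genes of interleukin-5 family signalling, 4 were higher, 3 were lower and 7 were not called, with a median log2 fold change of 0.59. Over all genes tested 14.6% were higher and 15.0% lower, so the lower count is near the background. Csf2ra, the GM-CSF receptor alpha chain, rose 43.1-fold (475 ± 54.4 CPM in CD11b+ cells and 11.6 ± 5.79 CPM in CD11b- cells, SD, n = 4 each; edgeR adjusted p = 1.07e-05). Csf2rb, the beta chain that pairs with Il5ra, had 97.7, 80.7, 76.4 and 85.7 CPM in CD11b+ replicates 1 to 4, against 17.0, 14.6, 0.124 and 13.9 CPM in CD11b- replicates 1 to 4. The 4-count value is from the same CD11b- library that was lowest for Il5ra and Epx. Csf2rb rose 7.89-fold by edgeR (adjusted p = 0.0314), but the call was lost when any library other than CD11b- replicate 3 was left out, with adjusted p up to 0.0664. The kinase Lyn (2.14-fold) and the transcription factor Stat3 (3.94-fold) were higher in CD11b+ cells. Jak2 (log2 fold change -0.72), the survival kinase Pim1 (-2.04) and the anti-apoptotic Bcl2l1 (-3.29) were lower.

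Of 14 transcription factor genes tied to the eosinophil lineage, 7 were higher, 3 were lower and 4 were not called, with a median log2 fold change of 1.47. Among all genes tested 14.6% were higher and 15.0% lower, so the lower count is near the background. Cebpe, which late granulocytes of both the eosinophil and neutrophil lines require, rose 119-fold, to 1139 ± 112 CPM in CD11b+ cells against 9.95 ± 8.42 CPM in CD11b- cells (SD, n = 4 each, edgeR adjusted p = 0.00016). Spi1, which encodes PU.1, rose 12.6-fold, and Xbp1, a secretory-pathway factor needed by mouse eosinophils, rose 2.27-fold. Gata1, on which the eosinophil line depends and which erythroid cells and megakaryocytes also use, averaged 52.7 ± 14.7 CPM in CD11b+ cells and 724 ± 118 CPM in CD11b- cells (SD, n = 4 each), and fell 13.4-fold (log2 fold change -3.75, edgeR adjusted p = 5.74e-06). Its partner Zfpm1 fell with a log2 fold change of -4.66. Irf8 was the other lower gene of the list (log2 fold change -2.01, edgeR adjusted p = 0.00906).

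Of 13 genes of surface receptors and lipid mediators, 8 were higher, 2 were lower and 3 were not called, with a median log2 fold change of 3.73. The lower count is near the background, as 14.6% of all genes tested were higher and 15.0% lower. Alox15 had 654, 521, 1770 and 946 CPM in CD11b+ replicates 1 to 4, against 4.05, 0.571, 0 and 0 CPM in CD11b- replicates 1 to 4 (edgeR adjusted p = 0.000401). Adora3, an adenosine receptor, was at 7.78 to 20.4 CPM in CD11b+ libraries and had no count in CD11b- libraries, a difference of at least 486-fold against 3 counts over the group; the list's median with Adora3 at that bound was also 3.73. Alox5ap, which serves leukotriene synthesis, rose 20.4-fold and the tetraspanin Cd9 rose 13.4-fold. Siglecf, the sialic acid receptor used to mark mouse eosinophils, had 42.6, 32.9, 40.3 and 38.4 CPM in CD11b+ replicates 1 to 4, against 0, 3.89, 0.710 and 13.1 CPM in CD11b- replicates 1 to 4. The groups did not overlap, and the 9.18-fold difference did not pass (edgeR adjusted p = 0.0802). Il1rl1, the interleukin-33 receptor (log2 fold change -3.04), and the integrin subunit Itga4, a binding partner of VCAM1 (-1.58), were lower.

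Of 13 granule-processing genes, 7 were higher, 2 were lower and 4 were not called, with a median log2 fold change of 1.85. Here too the lower count is near the background of 15.0% of all genes tested, while 14.6% of all were higher. Cd63, a granule membrane protein, rose 17.2-fold, Serpinb1a, a protease inhibitor, rose 30.1-fold and the cystatin Cst3 rose 3.60-fold. Ctsc, a dipeptidase that activates granule proteases, fell with a log2 fold change of -0.78 (edgeR adjusted p = 0.0284), a call lost in 5 of 8 fits that left out a library. Ndst2 also fell (log2 fold change -0.94, edgeR adjusted p = 0.00165). Of the ligands, Il5 had 0 counts in all 8 libraries, and Ccl5, which binds Ccr3 and Ccr1, fell with a log2 fold change of -1.87. Rnase4 and Rnase6, ribonucleases of the same superfamily, were not called.

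**Figure D3:**
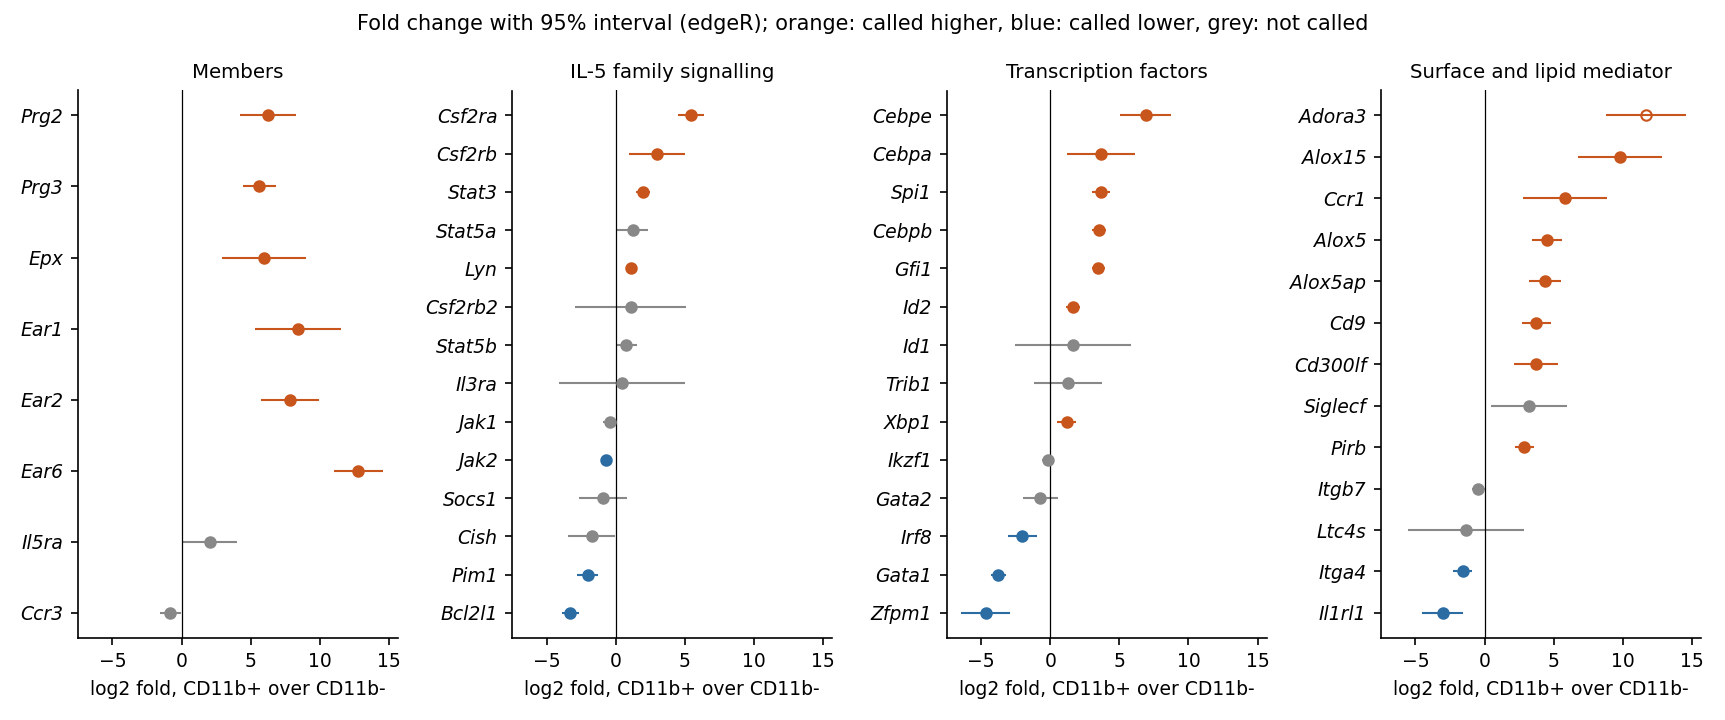
Log2 fold change (CD11b+ over CD11b-) with 95% intervals from edgeR for the members, the interleukin-5 signalling genes, the lineage transcription factors and the surface and lipid genes; orange points are called higher, blue called lower and grey not called. All 6 granule genes are orange and both receptors grey. Adora3 is drawn hollow because it has no CD11b- count, and the fitted values of it and of Ear6 depend on the prior count.

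Other granulocyte genes were also higher in CD11b+ cells, but did not always follow the members within a sort. All 8 tested primary granule genes rose, as did 11 of 14 neutrophil genes, the other 3 not being called. Of all genes tested, 14.6% were higher. The neutrophil list summed to 72713 to 101297 CPM in CD11b+ libraries, against 166 to 776 CPM in CD11b- libraries. The primary granule list summed to 61617 to 89152 CPM in CD11b+ libraries, against 570 to 7103 CPM in CD11b- libraries. CD11b+ replicate 2 had the lowest sum of the members (6804 CPM) and the highest of the neutrophil list. The primary granule list was highest in CD11b+ replicate 4, the members in replicate 3. In CD11b- libraries the neutrophil list was highest in replicate 3, while the primary granule list fell from replicate 1 to 4, as the members did. Basophil and mast cell genes overlapped between the sorts, at 1876 to 4707 CPM in CD11b+ libraries and 278 to 4672 CPM in CD11b- libraries. Of the 10 tested, 2 were called higher (Hdc and Kit) and 8 were not called. That higher count is near the 14.6% of all genes tested. The Kit call was lost in 6 of 8 fits that left out a library, with adjusted p up to 0.0915 by edgeR. The mast cell tryptase Tpsb2 had 0 counts in all 8 libraries. Prss34, a basophil protease, had 2123, 1042, 1587 and 3683 CPM in CD11b+ replicates 1 to 4, against 4105, 2139, 399 and 193 CPM in CD11b- replicates 1 to 4. Prg2 counts were 317% to 962% of Prss34 counts in CD11b+ libraries and 8.06% to 11.7% in CD11b- libraries, where the share spanned 1.45-fold while Prg2 itself varied over a wider range. The part of these lists in the members' differences was not tested.

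**Figure D4:**
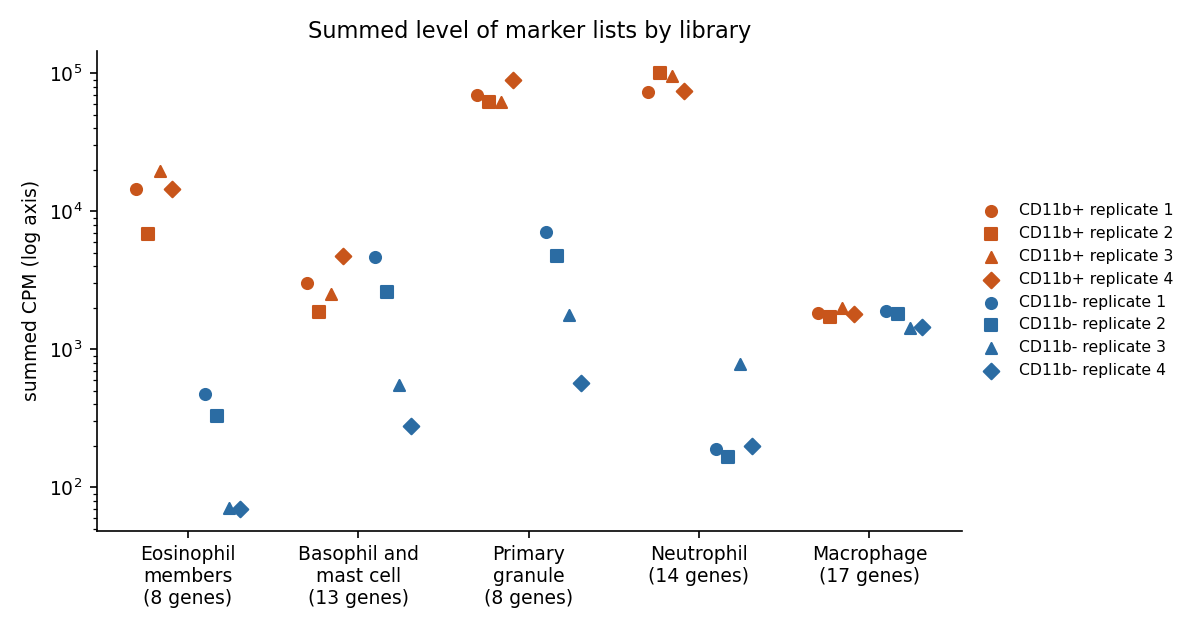
Summed CPM of the members and the marker lists in each library on a log axis, CD11b+ libraries left of CD11b- libraries. The neutrophil and primary granule lists separate with the members, while the basophil and mast cell list and the macrophage list overlap between the sorts.

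Likeness to Prg2 was measured as the root mean square difference, over the 8 libraries, of log2(CPM + 1) levels centred on each gene's mean. The measure counts the difference between the sorts as well as the spread within them. The nearest of 11964 other genes were Elane (0.44), Cebpe (0.50), Prtn3 (0.60), Igsf6 (0.72) and Clec5a (0.77), of which Elane and Prtn3 encode primary granule proteases of neutrophil precursors. Nearness did not mean a shared order within CD11b+ libraries. Elane was lowest in CD11b+ replicate 3 (17424 CPM), where Prg2 and Cebpe were highest. Ear1 ranked 7, Prg3 ranked 8, Ear6 ranked 23, Epx ranked 26 and Ear2 ranked 69, while Il5ra ranked 584 and Ccr3 ranked 8835. Ranks of genes at or near 0 in CD11b- libraries can depend on the 1 added to CPM. By limma the log2 fold changes of Ear1 and Prg2 were 6.81 and 6.80 with 1 added, but 9.41 and 6.83 with 0.1 added. Ranks with 0.1 added were not computed. For Il5ra the nearest genes were Pik3r5 (0.29), Matk (0.48), P2ry14 (0.49), Fbxl6 (0.50) and Hspa13 (0.51), each at or near 0 in CD11b- replicate 3.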

How the data were processed

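RNA of 8 SmartSeq2 libraries was measured. For each library the authors deposited whole-number counts by gene symbol, in a file named for FPKM, and for the series a CPM table. Recomputing CPM from the counts matched that table within 0.0005. The submitters' processing notes name TopHat2, HTSeq 0.10.0, DESeq2 and mm9 without saying what each was used for. How strand and multiply mapped reads were handled is not given in the sources used here. Since SmartSeq2 keeps no strand, a gene cannot be separated from an overlapping or antisense one.

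Of 18817 rows, 27 with numbers for symbols were left out (0.205% to 0.514% of counts). The counts were tested with edgeR 4.0.16 in R 4.3.3 (TMM scaling, a minimum count of 10 and total of 15, quasi-likelihood test, Benjamini-Hochberg adjustment at 0.05, no covariate) over the 11965 genes kept, which include all 8 members. The script was tested on simulated counts, where it gave back the sizes of the simulated folds but left many of the smaller ones, and some of the largest, uncalled. Alternatives were DESeq2 1.42.0 (no adjusted p for 81 genes), RLE size factors, totals only, no filter, at least 10 CPM in 4 libraries, limma 3.58.1 on log2(CPM + 1) and log2(CPM + 0.1), the replicate number as a block, and leaving out each library. Exon lengths by symbol came from GENCODE M21 for 18088 of 18790 named genes (96.3%), and promoters from RefSeq on GRCm38.p6; the files carry no coordinates.

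Genes open to naming were the members, the 3 most abundant tested genes of each list and list-defining genes at 0. The rule also took the called genes of a list where 5 or fewer were called in a direction. It further took the 5 genes nearest in profile to Prg2 and to Il5ra. Not every gene under this rule is mentioned in the text. Spi1, Siglecf, Adora3, Ear10, Mmp9, Retnlg, Cxcr2, Siglec1 and Timd4 fall outside that rule and were named after their values were seen. The members and lists were chosen with earlier results of these data known. Siglec5, Ptgdr2, Ccl11, Ly6g and further Ear genes were not among the named genes under these symbols, so they were not analysed here. Replicates differed beyond counting noise (chi-square per degree of freedom 125 to 217), so none was treated as a library deposited in duplicate.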

Additional observations from a re-analysis of the deposited data

Results flagged for a closer look

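In CD11b- cells, Ear1 stood at 2.08 CPM in replicate 1 and at 0 in the other 3 libraries, so that this library stands far from its group. Ear6 stood at 0.0857 CPM in CD11b- replicate 2, which is 3 counts, and at 0 in the other 3 libraries. With the other 3 libraries at 0, any single count sets a library apart in this way, so the usual rate of about 1 in 20 groups by chance does not apply here.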

How the results depend on the processing

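The calls of Prg2, Prg3, Epx, Ear1, Ear2 and Ear6 held in 16 of 16 alternatives each, and 6 to 7 members were higher and 0 lower, Il5ra being the gene that joined. Over all genes, 1585 to 2252 were higher and 1610 to 2233 lower under other tools, scalings and filters, and 1456 to 1754 and 1579 to 1670 with a library left out, against 1751 and 1798. Under no scaling did the median of all genes move by more than 0.1 log2. With the replicate number as a block, 6 members were higher, with 1585 genes higher and 1610 lower in all; Epx was then 135-fold and Ear1 923-fold higher, and Csf2rb had an adjusted p of 0.0582. Whether equal numbers mark paired samples is not stated. The correlation of deviations was 0.0151 to 0.0635 for equal numbers and -0.0539 to 0.0299 otherwise, and 6 of 8 libraries correlated best with their own number. All these correlations were weak, so they cannot decide whether samples were paired. Limma on log2(CPM + 1) gave folds of 62 for Ear2, 112 for Ear1 and 168 for Ear6, and on log2(CPM + 0.1) gave 682 for Ear1, 1459 for Ear6, 249 for Epx and 7.24 for Il5ra; the pseudocount bounds such folds from above. With a library left out, log2 fold changes that changed sign, none of them called, were those of Ccl8 (-0.42 to 8.30), Prss34 (-0.016 to 1.25) and Apoe (-0.13 to 0.060); the cause was not tested. Of 812 comparisons of other named genes with their reported call, 24 lost and 15 gained it, among them Kit (lost in 6 of 8 fits with a library left out) and C1qc (lost in 3). Ear1, Ear2 and Ear6 rest on 59, 47 and 3 counts in CD11b- cells, which limits the precision of their ratios.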
